A study of Mus musculus with 10 samples.

Results

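Collagen and laminin chains were followed in 10 subcutaneous tumors of obese mice, 5 from mice given vehicle and 5 from mice given liraglutide. The members are the 55 protein-coding genes, of 55401 genes in the count table, whose mouse symbol is that of a collagen alpha chain (Col, a number, a, a number) or of a laminin chain (Lama, Lamb or Lamc with a number). They fall into 11 fibrillar collagens, 8 basement membrane collagens (Col4a1 to Col4a6, Col15a1 and Col18a1), 25 other collagens and 11 laminins. The tumors were grown from KPN1.1, a mouse lung adenocarcinoma line, of which 75000 cells had been injected into the flank of each male C57BL/6J mouse at an age of 7 to 17 weeks. The mice of both groups were bought obese or made so on high-fat chow (60% of calories from fat), and once a tumor could be felt they received liraglutide, an agonist of the glucagon-like peptide-1 receptor, at 0.2 μg per gram of body weight each day into the peritoneum, or PBS as the vehicle. Tumors were taken between days 19 and 22 after injection, and a frozen fragment of each gave the RNA. All tumors came from a single injected line growing under the skin, not in the lung, and a fragment holds tumor cells together with host cells, so fewer cells of a type and less RNA per cell cannot be told apart. The labels number the tumors 1 to 5 in each group but name no animal, so p-values measure the spread between these tumors.

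Collagens are built from chains that wind into trimers. Type I, III and V chains form the banded fibrils of connective tissue, which fibroblasts lay down around a tumor. Type IV collagen forms the network of the basement membrane, the sheet under epithelium and around vessels, and laminins, each a trimer of an alpha, a beta and a gamma chain, form the other network of that sheet. Other collagens sit on fibrils (types XII and XIV), form beaded filaments (type VI) or short-chain networks (types VIII and X), anchor epithelium to the dermis (type VII) or span the cell membrane (types XIII, XVII, XXIII and XXV).

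Total counts lay between 9927942 and 14480593 per tumor, where 3 counts correspond to 0.207 to 0.315 CPM. CPM are counts scaled to a common library size after TMM normalization, and RPKM are CPM per kilobase of all annotated exons of the gene, the scale on which genes are compared with each other. The epithelial keratins Krt8 (833 to 1682 RPKM) and Krt18 (723 to 1391 RPKM) were abundant in every tumor, whereas the epithelial adhesion gene Epcam averaged 2.46 CPM ± 1.90 (SD, n = 5) in vehicle and 3.00 ± 0.841 (SD, n = 5) in liraglutide tumors (named after its values were seen). The lung lineage factor Nkx2-1 was present in all tumors at 5.85 to 43.6 RPKM. Among 6 tested lung lineage markers, 5 had a log2 fold change above 0 (median 0.85), as did 47.4% of all tested genes. Of these markers 1, Nkx2-1, was higher in liraglutide tumors at an unadjusted p under 0.05 (log2 fold change 0.99, SE 0.45, edgeR adjusted p = 0.520), as were 3.97% of all tested genes. Vehicle tumors 4 and 5 stood apart for fibrillar collagens, as described first.

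Fibrillar collagens had the largest mean summed level of the 4 classes in both groups and differed most between tumors. Their summed level in vehicle tumors 1 to 5 was 416, 426, 372, 175 and 188 RPKM, and in liraglutide tumors 1 to 5 it was 450, 245, 306, 397 and 409 RPKM. Vehicle tumors 4 and 5 lay below all liraglutide tumors, and the other 3 vehicle tumors lay within the liraglutide range. The group means were 315 RPKM ± 124 (SD, n = 5) and 361 ± 83.7 (SD, n = 5), a difference smaller than either SD. Laminins summed to 286 RPKM ± 63.6 in vehicle and 289 ± 31.0 in liraglutide tumors, basement membrane collagens to 237 ± 44.3 and 248 ± 10.1, and other collagens to 130 ± 24.1 and 151 ± 21.4 (SD, n = 5 each). Vehicle tumor 4 held the lowest sum in each of the 4 classes, with 173 RPKM for basement membrane collagens, 88.2 for other collagens and 230 for laminins. In liraglutide tumors the sum of basement membrane collagens stayed between 237 and 261 RPKM. Together the members took 0.845% ± 0.181 (SD, n = 5) of all counts in vehicle and 0.955% ± 0.118 (SD, n = 5) in liraglutide tumors.

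**Figure D1:**
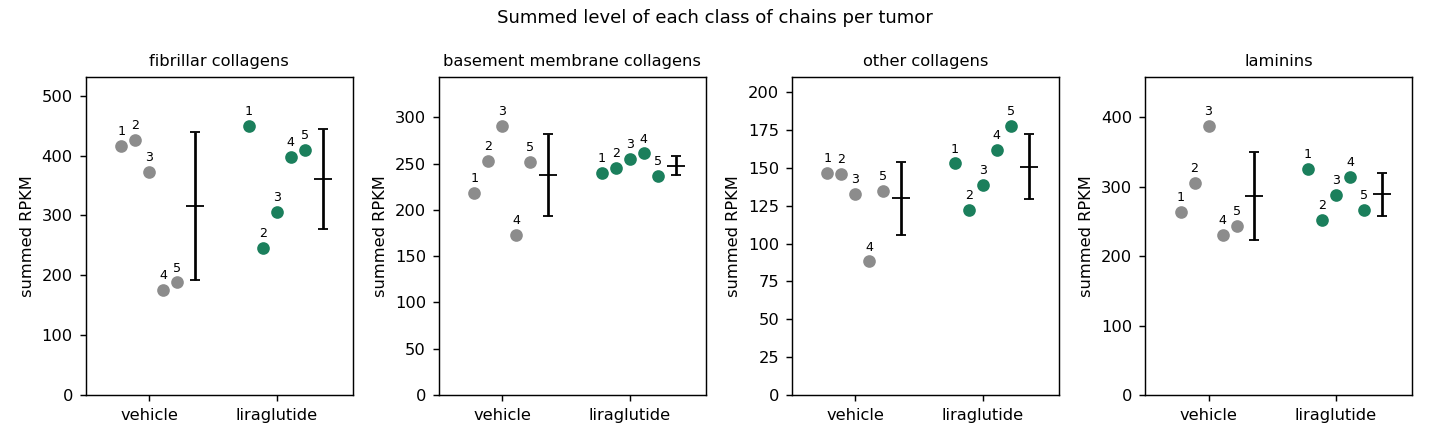
Summed RPKM of the chains of each class (vertical axis, from 0) in each vehicle (grey) and liraglutide (green) tumor, with tumor numbers beside the points and the mean ± SD of 5 tumors as a black bar. Vehicle tumors 4 and 5, at 175 and 188 RPKM, are the lowest for fibrillar collagens, and the 4 classes overlap between treatments.

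The sum of 9 fibroblast markers was lowest in the same vehicle tumors, 5 (14.4 RPKM) and 4 (16.8 RPKM). It ranged up to 29.7 RPKM in vehicle tumor 3, and lay between 20 and 25.1 RPKM in liraglutide tumors. In vehicle tumor 1, where fibrillar collagens were at 416 RPKM, the marker sum was 19.5 RPKM, below every liraglutide tumor. Of the fibroblast markers, Thy1 averaged 32.4 CPM ± 5.01 and 40.6 ± 3.84, and Dcn, the fibril-binding proteoglycan decorin, 37.0 CPM ± 14.8 and 34.0 ± 6.88 (SD, n = 5 each, vehicle and liraglutide). Tcf21 was at 0 in every tumor. Of the 8 markers tested, 6 had a negative log2 fold change (47.4% of all tested genes had a positive one), and the median was −0.13. Of the 8, 1, Thy1, was higher at an unadjusted p under 0.05 (3.97% of all tested genes). The part of fibroblast content in the fibrillar levels was not tested.

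Of the 55 members, 43 passed the filter on low counts and were tested, and none passed an adjusted p of 0.05 in edgeR's quasi-likelihood test with Benjamini-Hochberg adjustment over 17464 genes (0% of all genes passed, and the smallest adjusted p was 0.482). At an unadjusted p under 0.05, 6 members were higher in liraglutide tumors and 0 were lower. These 6 are 14.0% of the members tested, against 9.59% of all tested genes at that threshold, 3.97% higher and 5.62% lower. They are the short-chain collagens Col8a1 and Col8a2, the fibril-associated Col12a1, the basement membrane collagen Col15a1 and the laminin chains Lamb2 and Lamc1. DESeq2, which called 27 of 7201 genes (0.375%) at an adjusted p under 0.05, called 0 members. At an unadjusted p under 0.05 it had 10 of the 55 members, all higher, against 6.12% of all genes in that fit (2.83% higher). A positive log2 fold change was found for 33 of the 43 members (76.7%), against 47.4% of all tested genes, and the median was 0.15 for members against −0.02 for all genes. In no tested member did the groups separate fully (1.49% of all tested genes did so).

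By class, the median log2 fold change was 0.19 for 10 fibrillar collagens, 0.40 for 7 basement membrane collagens, 0.17 for 16 other collagens and 0.10 for 10 laminins. These medians moved with single tumors, from 0.09 (without vehicle tumor 4) to 0.27 for fibrillar collagens, from 0.21 (without vehicle tumor 2) to 0.50 (without liraglutide tumor 2) for basement membrane collagens, from 0.15 to 0.27 (without vehicle tumor 1) for other collagens and from 0.03 (without liraglutide tumor 1) to 0.17 (without vehicle tumor 3) for laminins. All 7 basement membrane collagens had a positive log2 fold change, but 2 of them, Col4a1 and Col4a2, were at 0.02 and 0.00. The number with a positive value was 7 of 10 for fibrillar collagens, 13 of 16 for other collagens and 6 of 10 for laminins. Of the 6 members at an unadjusted p under 0.05, 0 were fibrillar collagens, 1 was a basement membrane collagen, 3 were other collagens and 2 were laminins. With 1 surrogate variable in the fit, 9 members were at that threshold (11.5% of all genes, 5.37% higher), all with a positive value, and they shared 3 with the 6, Col8a1, Col12a1 and Lamb2. The others were the fibrillar chains Col1a1, Col1a2 and Col5a1, with Col4a4, Col6a3 and Lama5, and the class medians were 0.41, 0.30, 0.32 and 0.25 in the order above.

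**Figure D2:**
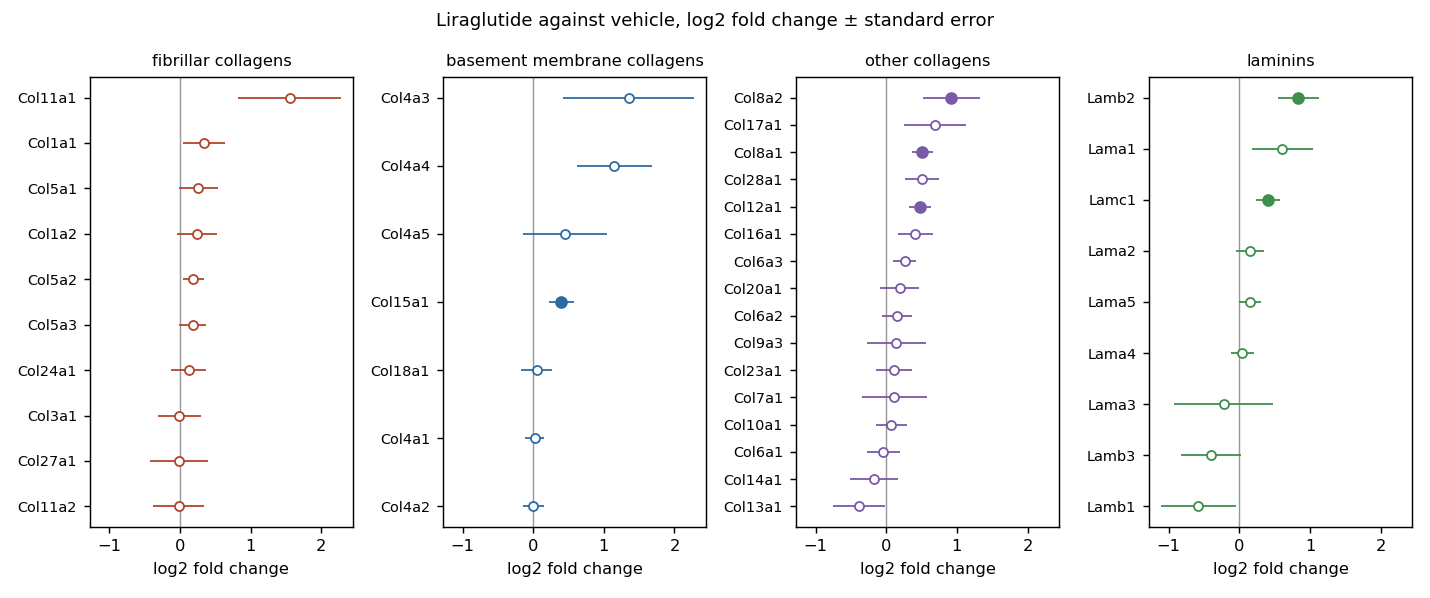
Log2 fold change of liraglutide against vehicle tumors (horizontal axis) with its standard error for 42 of the 43 tested chains, 1 panel per class. Filled points have an unadjusted p under 0.05, and all 6 of them (Col8a1, Col12a1, Col15a1, Lamb2, Lamc1 and Col8a2) lie to the right of 0.

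The 12 members that were not tested had between 1 and 76 counts over all tumors together. They are Col2a1, the fibrillar chain of cartilage, the type IX chains Col9a1 and Col9a2, also of cartilage, the basement membrane chain Col4a6, the type VI chains Col6a4, Col6a5 and Col6a6, the laminin chain Lamc3, and Col19a1, Col22a1, Col25a1 and Col26a1. Col2a1 had 5 counts in all, at most 2 in a tumor, although the cartilage proteoglycan Acan averaged 644 CPM ± 408 in vehicle and 307 ± 169 in liraglutide tumors (SD, n = 5 each).

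Among fibrillar collagens, Col1a1 and Col3a1 were the most abundant, with means of 130 and 101 RPKM over the 10 tumors. Col1a1 (chr11:94827050-94843868, plus strand, GRCm39), the major chain of type I collagen, was at 1061, 1041, 836, 385 and 459 CPM in vehicle tumors 1 to 5 and at 1227, 588, 824, 1061 and 1079 CPM in liraglutide tumors 1 to 5. Its 2 lowest tumors were vehicle tumors 4 and 5 and its highest was liraglutide tumor 1, with the other tumors of both groups interleaved. Its log2 fold change was 0.34 (SE 0.30, exact permutation p = 0.238). Col1a2, the other type I chain (chr6:4504814-4541555, plus strand), had a log2 fold change of 0.24 (SE 0.28, exact permutation p = 0.373). With 1 surrogate variable these were 0.74 (SE 0.27, edgeR adjusted p = 0.343) and 0.58 (SE 0.26, edgeR adjusted p = 0.424).

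Col3a1 (chr1:45350698-45395840, plus strand), the single chain of type III collagen, was at 1308, 1482, 1351, 571 and 523 CPM in vehicle tumors and at 1325, 741, 833, 1126 and 1171 CPM in liraglutide tumors. Vehicle tumors 4 and 5 were again the lowest, while vehicle tumors 2 and 3 were the highest, so that the group means of 1047 and 1039 CPM lay close together (log2 fold change −0.01, SE 0.30), with a direction that turned under 5 of 9 alternative settings. Col5a1 and Col5a2, the type V chains that start fibrils, had log2 fold changes of 0.26 (SE 0.28) and 0.19 (SE 0.15), and with 1 surrogate variable Col5a1 was at 0.61 (SE 0.26, edgeR adjusted p = 0.391). Without vehicle tumor 4 Col5a1 was at 0.08, and without vehicle tumor 5 Col5a2 was at 0.12. Over the 10 tested fibrillar chains, vehicle tumor 4 was the lowest tumor for 5 and vehicle tumor 5 for 3, and liraglutide tumor 1 was the highest for 6.

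Col11a1, a minor fibrillar chain, had the largest log2 fold change of the members, and it came from a single tumor. It was at 4.08, 2.84, 1.78, 4.77 and 2.44 CPM in vehicle tumors and at 1.99, 3.18, 2.5, 7.18 and 32.1 CPM in liraglutide tumors. Only liraglutide tumors 5 and 4 exceeded the vehicle range. The log2 fold change of 1.55 (SE 0.73, exact permutation p = 0.389) was 0.21 (SE 0.42) without liraglutide tumor 5. Col11a1 was singled out after its values were seen.

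**Figure D3:**
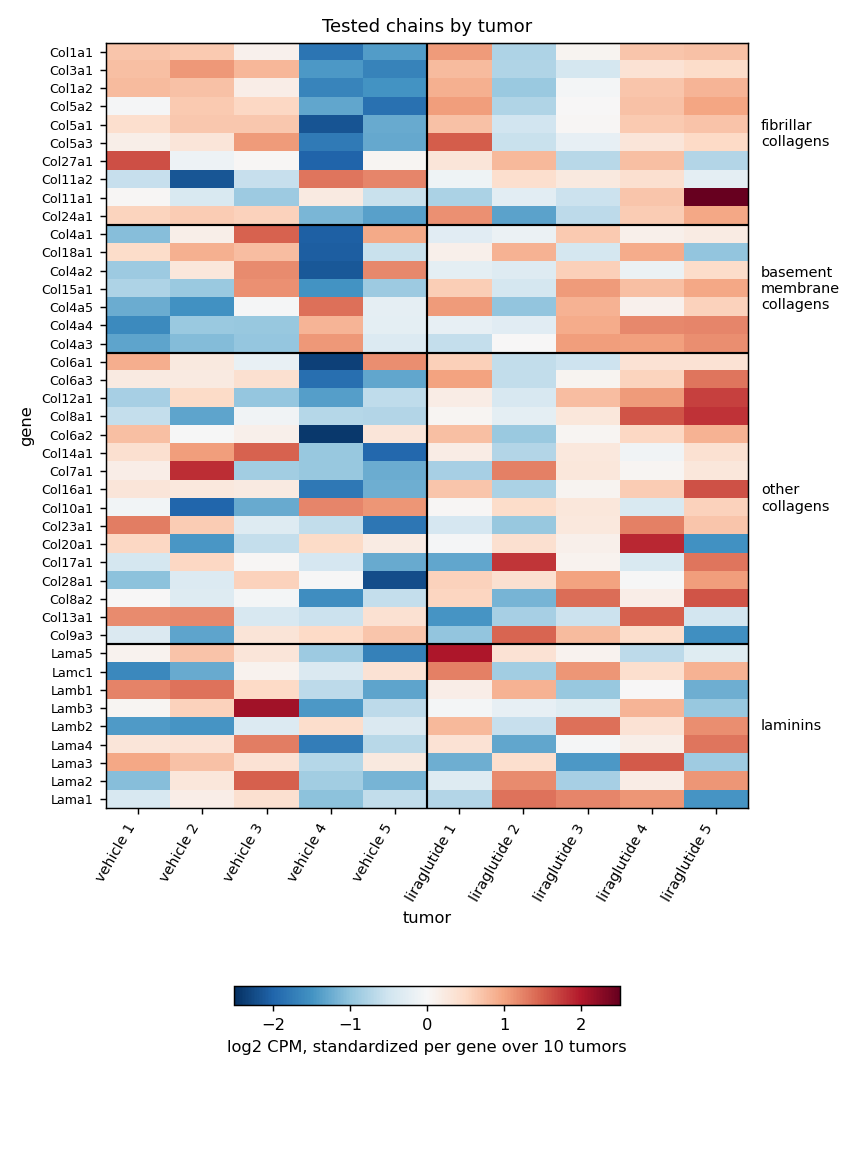
Log2 CPM of 42 of the 43 tested chains (rows, by class and ordered by mean RPKM) in the 10 tumors (columns), standardized for each gene over the tumors, with red above and blue below the gene's mean in standard deviations. Fibrillar chains are blue in vehicle tumors 4 and 5, except for Col11a2 in both, Col11a1 in tumor 4 and Col27a1 in tumor 5, and Col11a1 is darkest in liraglutide tumor 5.

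Col4a1 and Col4a2, which together form the common type IV collagen of basement membranes, were nearly equal between the treatments and followed each other closely. Col4a1 was at 658, 787, 955, 570 and 883 CPM in vehicle tumors and at 737, 753, 846, 784 and 792 CPM in liraglutide tumors, and Col4a2 was at 321, 393, 458, 262 and 459 CPM and at 360, 355, 414, 365 and 405 CPM. In both genes vehicle tumor 4 was the lowest tumor and the liraglutide tumors fell inside the vehicle range. The log2 fold changes were 0.02 (SE 0.14, exact permutation p = 0.754) for Col4a1 and 0.00 (SE 0.15, exact permutation p = 0.849) for Col4a2. The RPKM ratio of Col4a1 to Col4a2 lay between 1.85 and 2.10 in all 10 tumors, while each gene itself varied 1.68-fold and 1.75-fold between tumors.

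These chains share a start region. On GRCm39, Col4a1 (chr8:11248423-11362826, minus strand) and Col4a2 (chr8:11362471-11499287, plus strand) lie head to head and overlap by 356 bases, and the RefSeq start sites on GRCm38.p6 are 21 bases apart. Col4a3 and Col4a4 lie head to head on chromosome 1 with an overlap of 159 bases, and Col4a5 and Col4a6 on the X chromosome with a gap of 1281 bases. The counting is not stated to use strand, so how reads in the overlaps were counted is not known. The RefSeq promoter window of Col4a1 (chr8:11312777-11313076, minus strand, GRCm38.p6) is shown 5′ to 3′ because its last 78 bases, in capitals, also lie in the window of Col4a2 on the other strand.
Col4a1: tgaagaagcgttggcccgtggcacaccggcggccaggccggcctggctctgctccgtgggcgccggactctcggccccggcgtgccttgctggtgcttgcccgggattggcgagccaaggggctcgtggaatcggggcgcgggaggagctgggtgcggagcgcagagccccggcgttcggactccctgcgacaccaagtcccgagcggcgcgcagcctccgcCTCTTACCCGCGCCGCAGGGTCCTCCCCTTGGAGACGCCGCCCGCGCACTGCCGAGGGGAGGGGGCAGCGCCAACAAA

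The less common type IV chains were low and uneven. Col4a3 was at 0.484, 0.71, 0.840, 14.6 and 2.12 CPM in vehicle tumors and at 1.47, 3.43, 13.7, 13.6 and 16.1 CPM in liraglutide tumors, a 33.2-fold range. Vehicle tumor 4 lay with liraglutide tumors 3, 4 and 5, and the other vehicle tumors lay with or below liraglutide tumors 1 and 2. Its head-to-head partner Col4a4 divided the tumors alike, with 1.80, 3.14, 3.04, 12.9 and 5.38 CPM in vehicle and 5.62, 5.22, 13.6, 16.9 and 17 CPM in liraglutide tumors. On the log2 scale the differences were 1.35 (SE 0.93, exact permutation p = 0.103) and 1.15 (SE 0.53, exact permutation p = 0.0556). Without vehicle tumor 4 they were 3.21 (SE 0.75) and 1.81 (SE 0.46), with adjusted p-values of 0.164 and 0.179. Col4a4 was at an unadjusted p under 0.05 in 5 of 9 other settings and 3 of 10 fits with a tumor left out. Col4a3 was so in 1 of 9, with the tumor number as a block, and in 1 of 10, without vehicle tumor 4.

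Col4a5, which forms trimers with both of these chains, was at 15.2, 12.3, 39.5, 119 and 34.0 CPM in vehicle tumors and at 92.6, 18.5, 80.4, 44.1 and 63.9 CPM in liraglutide tumors. Vehicle tumor 4 was the highest of all and vehicle tumors 1 and 2 were the lowest. Its log2 fold change was 0.45 (SE 0.60, exact permutation p = 0.310), and 1.26 (SE 0.48) without vehicle tumor 4. Vehicle tumor 4 thus held the lowest Col4a1 and Col4a2 and the highest Col4a5 of the 10 tumors.

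The multiplexins Col15a1 and Col18a1, basement membrane collagens whose ends can be cut off as restin and endostatin, were at unlike levels, with means of 11.7 and 67.0 RPKM. Col15a1 (chr4:47207582-47313179, plus strand) was at 65.0, 62.8, 105, 54.4 and 63.0 CPM in vehicle tumors and at 92.6, 70.8, 104, 95.5 and 101 CPM in liraglutide tumors. Vehicle tumor 3 was the highest tumor, and the other 4 vehicle tumors lay below every liraglutide tumor. The log2 fold change was 0.40 (SE 0.18, unadjusted edgeR p = 0.0447, adjusted p = 0.515, two-sided exact permutation p = 0.0794). For Col18a1 it was 0.05 (SE 0.22, exact permutation p = 0.786).

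Col8a1 had the smallest p of the members. It encodes a short-chain collagen of networks around vessels and in the cornea and lies at chr16:57444621-57575100 on the minus strand. Its levels were 102, 86.1, 116, 99.7 and 99.0 CPM in vehicle tumors and 120, 112, 127, 174 and 184 CPM in liraglutide tumors. Vehicle tumor 3 lay above liraglutide tumor 2, and every other vehicle tumor lay below the liraglutide tumors, of which tumors 4 and 5 were the highest. The means were 101 CPM ± 10.6 and 144 ± 33.3 (SD, n = 5 each), and the log2 fold change was 0.51 (SE 0.15, unadjusted edgeR p = 0.00654, adjusted p = 0.482, two-sided exact permutation p = 0.0159). The smallest p that 5 against 5 tumors allow in the permutation test is 0.00794.

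Its partner chain Col8a2 was scarce, with 0.837 to 2.07 CPM in vehicle and 1.06 to 4.84 CPM in liraglutide tumors and 10 to 65 counts per tumor. Liraglutide tumor 2 lay inside the vehicle range and the other 4 liraglutide tumors above it. Its log2 fold change was 0.92 (SE 0.40, unadjusted edgeR p = 0.0392, adjusted p = 0.515, two-sided exact permutation p = 0.127). Col10a1, the third short-chain collagen, had a log2 fold change of 0.07 (SE 0.22). The pericyte and smooth muscle markers, genes of cells that wrap vessels, had a positive log2 fold change in 7 of 7 tested genes (47.4% of all tested genes). Of the 7, 1 was at an unadjusted p under 0.05 (3.97% of all tested genes were higher). Their summed level ranged from 33.2 to 43.5 RPKM in vehicle and from 29.8 to 64.3 RPKM in liraglutide tumors. Their part in the Col8a1 levels was not tested.

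Col12a1 (chr9:79506268-79626135, minus strand), a large collagen bound to the surface of fibrils, was at 329, 455, 317, 287 and 345 CPM in vehicle tumors and at 422, 365, 487, 525 and 615 CPM in liraglutide tumors. Vehicle tumor 2 lay inside the liraglutide range, and the other 4 vehicle tumors lay below it. The log2 fold change was 0.48 (SE 0.16, unadjusted edgeR p = 0.0124, adjusted p = 0.482, two-sided exact permutation p = 0.0317). Col14a1, a fibril-associated collagen of like build, was at 12.9 to 56.0 CPM in vehicle and 21.8 to 35.1 CPM in liraglutide tumors (log2 fold change −0.17, SE 0.34), with a positive value under limma-voom and with 1 surrogate variable.

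The type VI chains Col6a1, Col6a2 and Col6a3, which form beaded filaments around cells, averaged 40.0, 13.1 and 27.4 RPKM. In vehicle tumor 4 all 3 were at their lowest, with 112, 74.6 and 221 CPM. On the log2 scale the differences were −0.04 (SE 0.24) for Col6a1, whose sign turned under 4 of 9 alternative settings, 0.15 (SE 0.21) for Col6a2 and 0.26 (SE 0.16) for Col6a3. Col13a1, a transmembrane collagen, had a log2 fold change of −0.39 (SE 0.37, exact permutation p = 0.286), with 1.59 to 3.35 CPM in vehicle and 1.04 to 3.78 CPM in liraglutide tumors.

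Col7a1, which builds the anchoring fibrils of skin, and Col17a1, a transmembrane collagen of the hemidesmosome, were examined beside keratinocyte markers because the tumors grew under the skin. Col7a1 was at 32.0, 79.9, 18.3, 17.5 and 14.8 CPM in vehicle tumors and at 18.6, 58.2, 34.3, 30 and 34.0 CPM in liraglutide tumors. Vehicle tumor 2 and liraglutide tumor 2 were the highest. Col17a1 was at 2.12 to 5.78 CPM in vehicle tumors and at 2.07, 11.6, 4.55, 3.50 and 9.01 CPM in liraglutide tumors 1 to 5, with tumors 2 and 5 the highest. The log2 fold changes were 0.11 (SE 0.46, exact permutation p = 0.579) for Col7a1, negative without vehicle tumor 3, 4 or 5 or without liraglutide tumor 2, and 0.69 (SE 0.44, exact permutation p = 0.357) for Col17a1. Without vehicle tumor 2 Col7a1 was at 0.76 (SE 0.32, edgeR adjusted p = 0.822), with an unadjusted p under 0.05.

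The sum of 6 keratinocyte markers was 4.15 to 8.40 RPKM in vehicle tumors and 3.43, 87.6, 3.78, 31.3 and 23.7 RPKM in liraglutide tumors 1 to 5. Of these markers, 5 of 6 were higher in liraglutide tumors at an unadjusted p under 0.05 (3.97% of all tested genes), among them the basal keratin Krt14 (5.98 CPM ± 4.00 and 30.8 ± 36.9, SD, n = 5 each). Krt1 was at 0 in 5 tumors and Krt5 in 4, and both were named after their values were seen. Col17a1 was highest in liraglutide tumors 2 and 5, which also had high marker sums, but liraglutide tumor 4, with a sum of 31.3 RPKM, had 3.50 CPM of it, and Col7a1 was highest in vehicle tumor 2, whose marker sum was 4.85 RPKM. The part of skin cells in these values was not tested.

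**Figure D4:**
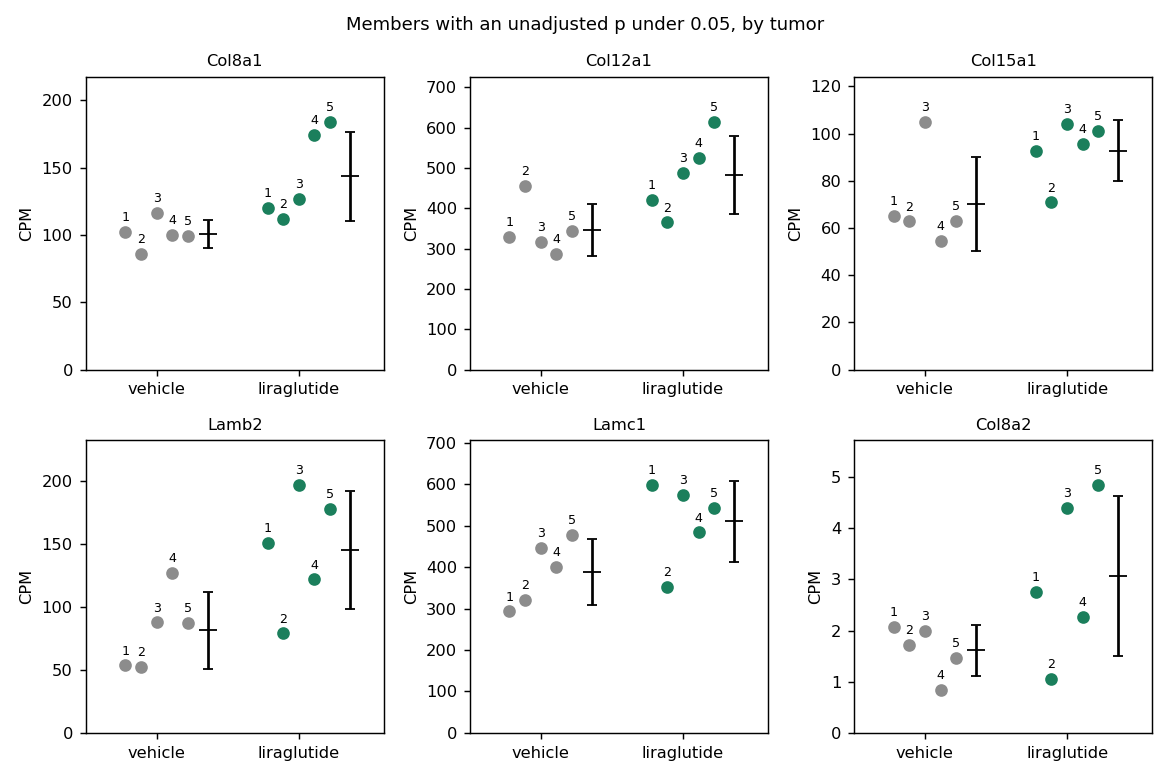
CPM (vertical axes, from 0) of the 6 members with an unadjusted p under 0.05 in each vehicle (grey) and liraglutide (green) tumor, with tumor numbers and the mean ± SD of 5 tumors in black. In each panel the groups overlap by at least 1 tumor, for example vehicle tumor 3 for Col8a1 (116 CPM) and vehicle tumor 2 for Col12a1 (455 CPM).

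Of the laminin chains described here, Lama5 had the highest mean level, 69.9 RPKM, followed by Lamc1 (39.6), Lamb1 (34.8), Lamb3 (25.4) and Lamb2 (18.6 RPKM). Lama5, the alpha chain of most adult epithelial and vascular basement membranes, was at 595 to 890 CPM in vehicle and 708 to 1109 CPM in liraglutide tumors (log2 fold change 0.15, SE 0.15). Lama4, the alpha chain of vessels and mesenchyme, was at 38.6 to 65.6 CPM and 41.6 to 66.3 CPM (log2 fold change 0.04, SE 0.16), and Lama1, the embryonic alpha chain, at 0.447 to 2.04 CPM in all tumors. Neighbours in this order overlap between tumors, since Lamb1 alone ranged from 11.5 to 72.6 RPKM. The order also rests on the length of all annotated exons. By canonical transcript length the mean ratio of Lamb1 to Lamc1 was 0.96 in place of 0.74.

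Lamb3 and Lama3, laminin chains of epithelial anchorage, were uneven. Lamb3 was highest in vehicle tumor 3 (534 CPM, with 89.4 to 284 CPM in the others), and Lama3 was highest in liraglutide tumor 4 (38.5 CPM, with 2.65 to 23.3 CPM in the others). On the log2 scale the differences were −0.40 (SE 0.42) for Lamb3 and −0.22 (SE 0.70) for Lama3. Without vehicle tumor 3 the value was 0.14 for Lamb3, and without liraglutide tumor 4 it was −1.25 for Lama3. For Lama3 it was −0.89 with limma-voom, −0.94 with the tumor number as a block and 0.21 with 1 surrogate variable.

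Lamb2, the beta chain of laminins such as laminin-521, had the second largest difference of the 6 members at an unadjusted p under 0.05. It was at 53.7, 52.3, 87.9, 127 and 87.4 CPM in vehicle tumors and at 151, 79.1, 197, 122 and 178 CPM in liraglutide tumors. Liraglutide tumors 1, 3 and 5 lay above all vehicle tumors, and liraglutide tumors 2 and 4 lay inside the vehicle range. The log2 fold change was 0.83 (SE 0.29, unadjusted edgeR p = 0.0143, adjusted p = 0.482, two-sided exact permutation p = 0.0556). Lamc1, the gamma chain found with both Lamb1 and Lamb2, was at 293, 320, 447, 400 and 477 CPM in vehicle tumors and at 598, 353, 575, 484 and 542 CPM in liraglutide tumors. Only liraglutide tumor 2 lay inside the vehicle range (log2 fold change 0.40, SE 0.17, unadjusted edgeR p = 0.0427, adjusted p = 0.515, two-sided exact permutation p = 0.0794).

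Lamb1, the alternative beta chain, had a negative log2 fold change. It was at 716, 779, 428, 194 and 123 CPM in vehicle tumors and at 341, 556, 160, 309 and 132 CPM in liraglutide tumors, a 6.32-fold range. Vehicle tumors 1 and 2 were the highest and vehicle tumor 5 the lowest, so the vehicle tumors spanned the whole range. Its value was −0.58 (SE 0.53, exact permutation p = 0.500), and 0.27 with 1 surrogate variable in the fit. With a tumor left out it lay between −0.92 (without liraglutide tumor 2) and −0.29 (without vehicle tumor 2).

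The RPKM ratio of Lamb1 to Lamb2 went from 8.45 in vehicle tumor 2 to 0.421 in liraglutide tumor 5. In vehicle tumors 1 to 5 it was 7.56, 8.45, 2.77, 0.866 and 0.800, and in liraglutide tumors 1.28, 3.99, 0.461, 1.43 and 0.421. By canonical transcript length the mean ratio was 2.87 in place of 1.68, and it was below 1 in liraglutide tumors 3 and 5 (0.789 and 0.720) but above it in vehicle tumors 4 and 5 (1.48 and 1.37). The 3 tumors with the highest Lamb1 (vehicle tumors 1 and 2 and liraglutide tumor 2) had the 3 lowest values of Lamb2. Lamb1 and Lamb2 were set against each other after their values were seen.

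The RefSeq promoter windows of these alternative beta chains (GRCm38.p6, 250 bases before to 50 after the start) are shown 5′ to 3′ because their levels ran opposite to each other. Capitals mark matches on either strand to the 3 motifs searched, and no match overlaps another in these windows. The first motif was the GC box, spelled GGGCGG. The other motifs were the CCAAT box, searched by the letters of its name, and the TATA box, spelled as TATAAA. The window of Lamb1 (chr12:31265043-31265342, plus strand) is 63.7% G or C and holds 2 GC boxes and 1 CCAAT box, and that of Lamb2 (chr9:108479612-108479911, plus strand) is 44.0% G or C and holds 0 of the 3 motifs.
Lamb1: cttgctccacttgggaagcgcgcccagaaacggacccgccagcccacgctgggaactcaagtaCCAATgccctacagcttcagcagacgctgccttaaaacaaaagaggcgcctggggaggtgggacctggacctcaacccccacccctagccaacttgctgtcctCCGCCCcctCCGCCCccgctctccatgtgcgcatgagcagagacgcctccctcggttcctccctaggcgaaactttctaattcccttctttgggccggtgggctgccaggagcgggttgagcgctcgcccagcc
Lamb2: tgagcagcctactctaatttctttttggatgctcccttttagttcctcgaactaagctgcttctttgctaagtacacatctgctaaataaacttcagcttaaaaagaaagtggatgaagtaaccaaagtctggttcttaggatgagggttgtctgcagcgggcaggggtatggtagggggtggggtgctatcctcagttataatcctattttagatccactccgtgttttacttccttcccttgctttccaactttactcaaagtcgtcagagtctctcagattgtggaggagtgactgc

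For all members, RefSeq windows were found for 40 of 55, in 44 windows. A GC box was in 59.1% of these 44 windows against 35.7% of 32851 windows of all genes, a CCAAT box in 31.8% against 37.4%, and a TATA box in 11.4% against 13.6%. A match describes the letters of the window and is not a binding site.

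Chains of the same molecule or family were compared over the 10 tumors in 6 pairs, with p-values from 100000 permutations adjusted over the 6. The pairs had been set for ratios per tumor, described without a test, and the correlation tests were added to that plan. The permutations exchanged tumors across both treatments. Col1a1 and Col1a2 had Pearson's r = 0.99 (permutation p = 1e-05, adjusted 3.0e-05, the raw p being the smallest that can be given) and Spearman's rho = 0.96 (permutation p = 2.0e-05, adjusted 0.00012). Col4a1 and Col4a2 had r = 0.98 (permutation p = 1e-05, adjusted 3.0e-05) and rho = 0.98 (permutation p = 4.0e-05, adjusted 0.00012). Without the 2 tumors farthest from the median of the first chain, r was 0.98 and 0.95. Col5a1 and Col5a2 had r = 0.91 (permutation p = 0.00065, adjusted 0.0013) and rho = 0.93 (permutation p = 0.00019, adjusted 0.00038), with r = 0.93 without the 2 farthest tumors.

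Col6a1 and Col6a2 had r = 0.91 (permutation p = 0.00156, adjusted 0.00234) and rho = 0.77 (permutation p = 0.0125, adjusted 0.0188), and r was 0.53 without the 2 farthest tumors, the largest change among the 6 pairs. Lamb1 and Lamc1 ran opposite to each other, with r = −0.73 (permutation p = 0.0214, adjusted 0.0257), rho = −0.66 (permutation p = 0.0445, adjusted 0.0534) and r = −0.74 without the 2 farthest tumors. Lama5 and Lama4, alpha chains that replace each other, had r = 0.35 (permutation p = 0.325, adjusted 0.325), rho = 0.43 (permutation p = 0.220, adjusted 0.220) and r = 0.31 without the 2 farthest. After each treatment group's mean was subtracted, a step added after seeing the data, r was 0.99 for the type I pair, 0.98 for Col4a1 and Col4a2, 0.90 for the type V pair, 0.93 for Col6a1 and Col6a2, −0.75 for Lamb1 and Lamc1 and 0.34 for Lama5 and Lama4. All of these share each tumor's library and mix of cells.

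The level of Col1a1 was 2.42 times that of Col1a2 per length of all annotated exons, with 2.09 to 2.69 between tumors, and 1.14 times per length of the canonical transcript. This ratio depends on a Col1a2 exon length of 12650 bases against 5359 bases in its canonical transcript. For Col4a1 to Col4a2 the ratio was 1.98 and 2.09 by these lengths. For Lama5 to Lama4 it was 20.72 and 7.97.

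**Figure D5:**
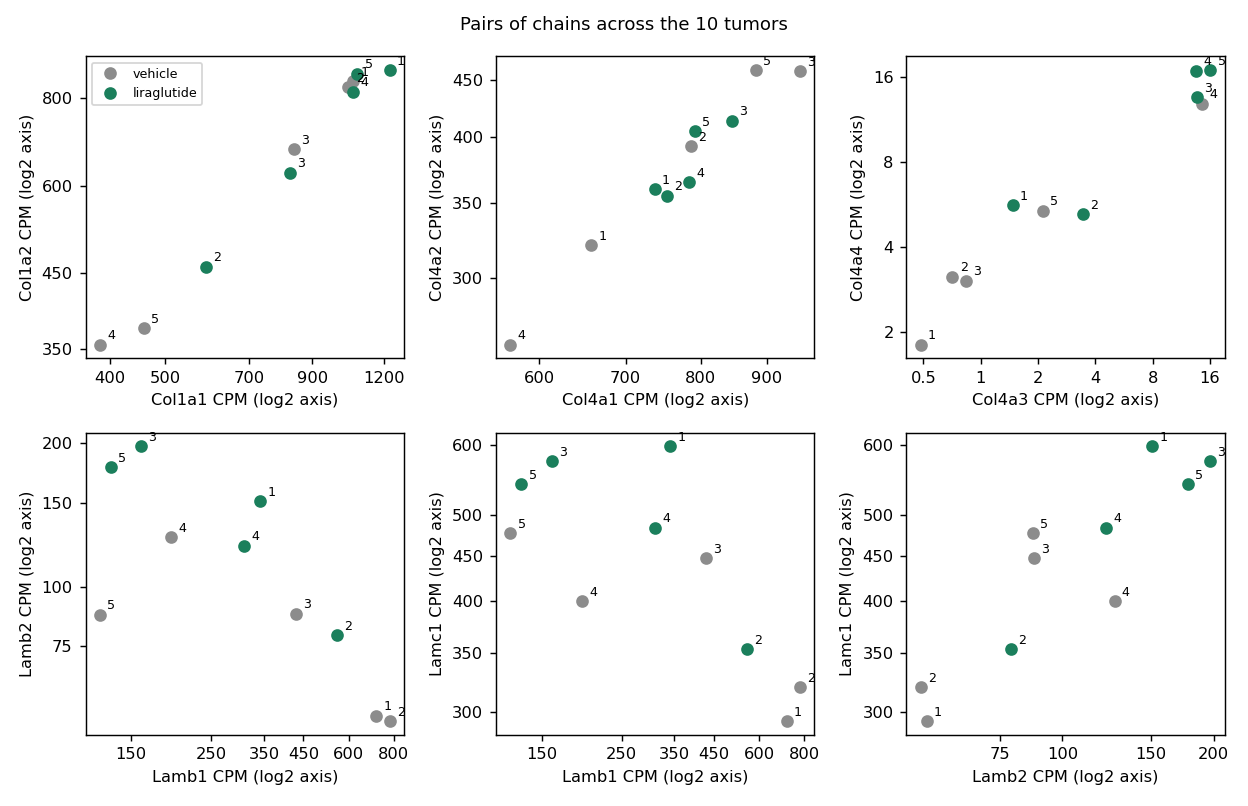
CPM of one chain against another on log2 axes for 6 pairs of chains, 1 point per tumor with its number (vehicle grey, liraglutide green). Col1a1 with Col1a2 and Col4a1 with Col4a2 lie along a line, Col4a3 and Col4a4 divide the tumors into a low and a high set, and Lamb1 runs opposite to Lamb2 and Lamc1.

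Genes that make, bind or sense these chains were read from the same fit. Over all tested genes, 3.97% were higher and 5.62% lower at an unadjusted p under 0.05, and 1.49% had groups without overlap. Of 24 tested genes for collagen synthesis and processing, 4 were higher and 1 was lower at an unadjusted p under 0.05, with a median log2 fold change of 0.14. Fkbp10, a collagen chaperone, was at 43.7 to 55.8 CPM in vehicle and 57.0 to 66.1 CPM in liraglutide tumors, without overlap (log2 fold change 0.32, SE 0.09, edgeR adjusted p = 0.482). P4ha3, a prolyl hydroxylase subunit, had a log2 fold change of 0.70 (SE 0.23) and Pcolce, an enhancer of procollagen cleavage, one of 0.77 (SE 0.29), with edgeR adjusted p-values of 0.482 and 0.494. The lower gene was Plod2, a lysyl hydroxylase, with 126 CPM ± 73.1 and 58.3 ± 27.6 (SD, n = 5 each, log2 fold change −1.11, SE 0.46), which was named after its value was seen.

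Of 11 tested basement membrane partners, 1 was higher and 0 were lower at that threshold (3.97% and 5.62% of all tested genes), with a median of 0.05. It was Sparc, a collagen-binding glycoprotein, at 634 CPM ± 54.1 and 777 ± 125 (SD, n = 5 each, log2 fold change 0.29, SE 0.13, edgeR adjusted p = 0.515), followed by Fbln1 at 0.38 (SE 0.20) and Agrn at 0.39 (SE 0.20) on the log2 scale. Of 15 tested collagen and laminin receptors, 4 were higher and 0 were lower (3.97% and 5.62% of all tested genes), with a median of 0.22. The collagen receptor kinase Ddr1 was at 95.3 to 108 CPM in vehicle and 117 to 165 CPM in liraglutide tumors, without overlap, as for 1.49% of all tested genes (log2 fold change 0.39, SE 0.11, edgeR adjusted p = 0.482). Bcam, a receptor of laminin alpha 5, had a log2 fold change of 0.89 (SE 0.31) and Dag1, dystroglycan, one of 0.55 (SE 0.20), with edgeR adjusted p-values of 0.482 and 0.488.

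Markers of other cell types in the fragments were read beside the members. Over all tested genes, 47.4% had a positive log2 fold change, and 3.97% were higher and 5.62% lower at an unadjusted p under 0.05. Skeletal muscle markers had a positive log2 fold change in 7 of 7 tested genes, 1 of them at an unadjusted p under 0.05, with sums of 10.6 to 60.2 RPKM in vehicle and 20.5 to 72.9 RPKM in liraglutide tumors. Endothelial markers, of cells that make type IV collagen and laminins, summed to 16.4 to 28.5 RPKM in vehicle and 17.4 to 21.3 RPKM in liraglutide tumors, with vehicle tumors 4 and 5 the lowest. Their log2 fold change was positive in 4 of 8 tested genes, with a median of −0.02, and 1, Vwf, named after its value was seen, was lower at an unadjusted p under 0.05 (log2 fold change −0.52, SE 0.22, edgeR adjusted p = 0.515). Leukocyte markers summed to 57.1 to 103 RPKM and 61.6 to 117 RPKM, and adipocyte markers to 3.59 to 24.9 RPKM and 5.28 to 16.6 RPKM. The log2 fold change was positive in 7 of 7 tested leukocyte markers, with a median of 0.21, and in 1 of 4 tested adipocyte markers, with a median of −0.37, and 0 of either were at an unadjusted p under 0.05. Cartilage markers, of which Acan gave most of the level, summed to 127, 118, 123, 13.6 and 44.3 RPKM in vehicle tumors 1 to 5 and to 54.5, 61.2, 25.7, 56.2 and 13.7 RPKM in liraglutide tumors 1 to 5. All liraglutide tumors lay below vehicle tumors 1, 2 and 3, and vehicle tumor 4 and liraglutide tumor 5 were the lowest. Over all tumors Acan averaged 61.5 RPKM and Chad 1.65 RPKM, while Matn1, Matn3, Comp and Snorc averaged 0.266 RPKM or less. The cartilage sum is thus a reading of Acan and not of the list. The part of the cell types above in the members' levels was not tested.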

How the data were processed

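RNA was measured in 10 KPN1.1 tumors. The authors deposited raw counts per gene. Per the paper's methods, ribosomal RNA was depleted and featureCounts was run on read pairs that TopHat 2.0.13, with Bowtie 1.0.1, had placed on GRCm39, and some samples were dropped for quality. The submitters' processing notes name GRCh38 and mm10 instead. The annotation release, the strand setting and the treatment of multimapping reads are not given in the sources used here. The deposited counts are whole numbers that had not been normalized.

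Of 55401 identifiers, 51731 (93.38%, holding 98.31% of the counts) matched GENCODE M39 on GRCm39 without their version, and 0 members had the same version, so the authors' gene models may differ from the lengths and positions used. The quasi-likelihood test of edgeR 4.0.16 (R 4.3.3) compared the treatments, with no other term, after filterByExpr and TMM. The alternatives were DESeq2 1.42.0, limma-voom (limma 3.58.1), DESeq2 size factors in edgeR, library size alone, normalization without the members, all genes with at least 1 count, at least 10 counts in every tumor, a block for the tumor number, 1 surrogate variable (sva 3.50.0) and leaving out each tumor. Canonical transcript lengths were added after seeing the data. The scripts were tested on simulated data. The values of 1 chain are not reported here, although it is counted in its class.

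Total counts of 9927942 to 14480593 per tumor set floors of 0.207 to 0.315 CPM (3 counts), which cover counting error alone. Between tumors of a group the chi-square per degree of freedom was 9.31 to 85.9. The members and gene lists were chosen with earlier results of these data known. Members were named if among the 4 highest of a class by RPKM, the 5 higher or 5 lower of smallest p, a trimer partner or an epithelial chain, pathway genes if among the 3 of smallest p, and marker genes if among the 2 most abundant, apart from those said to be named after their values were seen and those at 0. Single members were also compared by two-sided exact permutation tests of log2 CPM (prior count 2).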

Additional observations from a re-analysis of the deposited data

Results flagged for a closer look

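In groups of 5 tumors, a tumor was marked when its gap to the nearest other tumor exceeded 0.71 of the range of the group. Of 72 groups examined, 8 held such a tumor. The cutoff marks about 1 in 20 groups of normally distributed values, but CPM and RPKM were used here without a log. The 8 also include Col11a1, added after its values were seen. The count of 8 is therefore not compared with chance. Col15a1 was at 105 CPM in vehicle tumor 3, with 54.4 to 65.0 CPM in the other vehicle tumors. Col13a1 was at 3.78 CPM in liraglutide tumor 4, with at most 1.64 CPM in the other liraglutide tumors. Vehicle tumor 4 was far above the other vehicle tumors for the minor type IV chains Col4a3 (14.6 CPM) and Col4a5 (119 CPM). Col4a6, which was not tested, had 4 counts (0.335 CPM) in that tumor, close to the floor of 3 counts (0.251 CPM), and 0 in the other vehicle tumors. Vehicle tumor 4 was far below the others for the summed level of other collagens (88.2 RPKM). Col7a1 was at 79.9 CPM in vehicle tumor 2. Col11a1, added after its values were seen, was at 32.1 CPM in liraglutide tumor 5, with at most 7.18 CPM in the other liraglutide tumors.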

How the results depend on the processing

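No member passed an adjusted p of 0.05 under any alternative, and Col8a1, Col12a1 and Lamb2 kept an unadjusted p under 0.05 in all 9 other settings and all 10 fits with a tumor left out. Lamc1 did so in 8 of 9 and 3 of 10, Col15a1 in 8 of 9 and 2 of 10, and Col8a2 in 7 of 9 and 4 of 10. The depth limits chains of few counts, such as Col8a2 and Lama1. The cause of the changes below was not tested.

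DESeq2 called 27 genes at an adjusted p under 0.05, with 0 members among them (29 members had no adjusted p), and had 10 of 55 members higher at an unadjusted p under 0.05 (2.83% of all genes in that fit). With library size alone, 1 member, Col8a1, separated the groups (1.52% of all tested genes did). With each tumor left out, genes at an unadjusted p under 0.05 ranged from 919 (without liraglutide tumor 5) to 2704 (without vehicle tumor 4), with 1046 without vehicle tumor 2 and 1070 without liraglutide tumor 3. Members lower ranged from 0 to 2 (2, Col13a1 and Lama3, without liraglutide tumor 4, where 7.21% of all genes passed, 3.24% higher), members higher from 4 to 9 (2.21% to 7.12% of all genes over these fits, 5.85% where 9 members were higher) and members without overlap from 0 to 3 (1, Col12a1, without vehicle tumor 2, 2, Col8a1 and Col15a1, without vehicle tumor 3, and 3, Col8a1, Col8a2 and Lamc1, without liraglutide tumor 2, where 1.89%, 2.30% and 4.80% of all tested genes did not overlap).

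The log2 fold change of Col3a1 was 0.09 with limma-voom, 0.05 with library size alone, 0.02 with at least 10 counts in every tumor and 0.43 with 1 surrogate variable. Col6a1 was at 0.03 with limma-voom, 0.02 with library size alone and 0.02 with 1 surrogate variable. With 1 surrogate variable, Col4a2 was at −0.02, Lamb1 at 0.27, Col14a1 at 0.21 and Lama3 at 0.21, and Col14a1 was at 0.02 with limma-voom. Values that kept their sign but moved by over 1.5 times with 1 surrogate variable were Col1a1 (0.74), Col1a2 (0.58), Col5a1 (0.61), Lamb2 (0.52), Lamc1 (0.25), Lama5 (0.29), Lamb3 (−0.01), Col5a2 (0.30), Col18a1 (0.30), Col4a3 (0.83), Col4a4 (0.67), Col4a5 (0.12), Col7a1 (0.72) and Col11a1 (0.95). With limma-voom they were Lama3 (−0.89), Lamb3 (−0.19), Col4a3 (2.11), Col4a5 (0.74), Col7a1 (0.35) and Col11a1 (0.77). With a tumor left out, the values of Col3a1 ran from −0.17 to 0.15, Col4a1 from −0.06 to 0.12, Col18a1 from −0.09 to 0.14, Col4a2 from −0.09 to 0.09, Col6a1 from −0.21 to 0.10, Lamb3 from −0.62 to 0.14, Col14a1 from −0.38 to 0.08, Lama3 from −1.25 to 0.04, Lama4 from −0.04 to 0.14 and Col7a1 from −0.14 to 0.76. Without a change of sign, Col1a1 ran from 0.18 to 0.49, Col1a2 from 0.11 to 0.38, Col5a1 from 0.08 to 0.39, Col6a2 from 0.01 to 0.26, Lama5 from 0.03 to 0.21, Lamb1 from −0.92 to −0.29, Col13a1 from −0.79 to −0.24, Col17a1 from 0.35 to 0.91 and Col4a5 from 0.21 to 1.26. Of 31 named members tested, 20 had no change of direction under any alternative.

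Mean log2 ratios of chains by counts and by canonical transcript length were 0.33 and 0.18 for Col1a1 to Col1a2 (1.28 by exon length), 0.69 and 1.23 for Col6a1 to Col6a2 (1.6), −0.78 and −0.94 for Col5a1 to Col5a2 (−0.42), and 3.92 and 2.99 for Lama5 to Lama4 (4.37). For Col4a1 to Col4a2 the ratio by canonical length was 1.07 (0.98).

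The tumor numbers do not pair the tumors by the labels, and same-numbered tumors correlated at 0.354, 0.565, −0.0753, 0.0681 and 0.389 after group means were subtracted, with 1 of 5 numbers (tumor 2) correlating best with its own. With the tumor number as a replicate block, 2585 genes had an unadjusted p under 0.05 (1675 without it), 8 members did (14.8% of all genes, 7.50% higher), with Col4a3 (2.05, SE 0.57) and Col4a4 (1.30, SE 0.28, both edgeR adjusted p = 0.240) added to the 6, the smallest adjusted p of all genes was 0.228, Col3a1 was at 0.09, Col6a1 at 0.02, Lama3 at −0.94, Lamb3 at −0.21, Col14a1 at −0.02, Col4a5 at 0.76, Col7a1 at 0.32 and Col11a1 at 0.77 on the log2 scale.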
